A study of Mus musculus with 2 samples.

Results

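The immunity-related GTPases are interferon-induced GTP-binding proteins of the mouse. The 7 described here, Irgm1, Irgm2, Igtp, Iigp1, Ifi47, Tgtp1 and Tgtp2, were chosen by gene symbol among the 32285 genes of the deposited tables, and all 7 were found. Their identifiers in the tables are ENSMUSG00000046879 (Irgm1), ENSMUSG00000069874 (Irgm2), ENSMUSG00000078853 (Igtp), ENSMUSG00000054072 (Iigp1), ENSMUSG00000078920 (Ifi47), ENSMUSG00000078922 (Tgtp1) and ENSMUSG00000078921 (Tgtp2). Live cells, sorted by flow cytometry, came from tumors of MC38, a line of mouse colon cancer cells injected under the skin, and were sequenced singly on the 10x Genomics platform. One library came from Lmo7+/+ hosts and 1 from hosts with a global knockout of Lmo7, both female mice on the C57BL/6 background, 6 to 8 weeks old at inoculation, with no other treatment named for this experiment. The knockout is one of the host, and the implanted MC38 cells were the same line in both groups. Tumors were taken when the growth experiment ended. The number of mice behind each library, and the day for the sequenced tumors themselves, are not given in the sources used here. Each genotype is represented by a single library, without replicates, and the genotypes were therefore compared without a test. Every interval below is a 95% interval for counting error only, which leaves out the variation between mice.

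The family falls into a pair of groups by its nucleotide-binding loop. Irgm1, Irgm2 and Igtp (also called Irgm3) belong to the GMS group, which sits on the cell's own membranes and keeps the other members inactive there. Iigp1 (Irga6), Tgtp1 and Tgtp2 (Irgb6) and Ifi47 (Irgd) belong to the GKS group of effectors, which load onto the vacuoles of intracellular parasites such as Toxoplasma and break them open, a step that needs proteins of the autophagy conjugation system and works beside the guanylate-binding proteins. Their transcription follows interferon gamma through GAS elements, and type I interferon through ISRE elements, so that in a tumor their level is often read as a trace of interferon exposure.

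Of the 7 genes, 6 lie on chromosome 11 (GENCODE vM21, GRCm38). Irgm1 (chr11:48861968-48871683, minus strand), Tgtp1 (chr11:48985327-48994172, minus), Tgtp2 (chr11:49057194-49064206, minus) and Ifi47 (chr11:49076587-49096974, plus) share a stretch of 235 kb, and Igtp (chr11:58199556-58207591, plus) and Irgm2 (chr11:58199618-58222782, plus) lie 9103 kb further along. Iigp1 lies on another chromosome. Irgm2 as annotated covers nearly all of Igtp on the same strand, Tgtp1 overlaps Gm12185, another gene of the family, and the olfactory receptor gene Olfr56 as annotated spans all of Ifi47 on the same strand. Of all windows of 91 bases (a length chosen to stand for a read) in the transcripts of Tgtp1, 74.7% also occur in Tgtp2 or Gm12185, and 78.4% of those of Tgtp2 occur in Tgtp1 or Gm12185. The split of reads between Tgtp1 and Tgtp2 is therefore uncertain, and their sum is given beside them. The share was 6.03% for Igtp and 3.51% for Irgm2, 0.919% for Ifi47, and 0 for Irgm1 and Iigp1.

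The promoters are shown because these members were higher together in the library labelled Lmo7-/- and because their interferon motifs differ. The RefSeq table (GRCm38.p6) holds a promoter window for 6 of the 7 members, all but Iigp1. Each window runs from 250 bases before to 50 bases after the start site, and the 100 bases just before the start site are printed 5′ to 3′ on the gene's strand. Capitals mark matches to the ISRE core (TTTC, any 2 bases, TTTC, or on the other strand GAAA, any 2 bases, GAAA) and to the GAS core (TTC, any 3 bases, GAA), which reads the same on both strands. The windows printed are chr11:48871421-48871520 (minus strand) for Irgm1, chr11:58214877-58214976 (plus) for Irgm2, chr11:58199456-58199555 (plus) for Igtp, chr11:49076487-49076586 (plus) for Ifi47, chr11:48992247-48992346 (minus) for Tgtp1 and chr11:49064213-49064312 (minus) for Tgtp2.
Irgm1: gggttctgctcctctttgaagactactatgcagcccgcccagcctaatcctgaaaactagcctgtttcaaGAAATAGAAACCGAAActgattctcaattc
Irgm2: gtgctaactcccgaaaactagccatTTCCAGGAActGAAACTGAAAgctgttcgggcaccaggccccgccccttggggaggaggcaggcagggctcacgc
Igtp: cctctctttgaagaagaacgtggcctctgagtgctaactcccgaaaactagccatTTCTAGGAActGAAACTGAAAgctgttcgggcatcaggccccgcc
Ifi47: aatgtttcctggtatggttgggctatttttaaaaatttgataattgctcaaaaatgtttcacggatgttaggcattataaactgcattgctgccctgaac
Tgtp1: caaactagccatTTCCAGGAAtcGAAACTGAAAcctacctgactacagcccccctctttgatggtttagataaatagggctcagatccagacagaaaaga
Tgtp2: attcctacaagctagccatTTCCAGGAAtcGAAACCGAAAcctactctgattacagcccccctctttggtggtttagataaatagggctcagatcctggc

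A GAS and an ISRE match, with 11 bases from the first base of the GAS to that of the ISRE, stood in the promoters of Irgm2, Igtp, Tgtp1 and Tgtp2, at distances of -75, -45, -88 and -81 bases from the start site for the GAS. Lined up on the GAS, 25 of 29 bases from 8 before it to the end of the ISRE were identical in all 4. Irgm1 held 2 overlapping ISRE matches, at -30 and -24, and no GAS match. Ifi47 held neither within its window. Of all 32851 promoter windows of this length in the table, 3.44% hold an ISRE match, 8.30% a GAS match and 0.454% both. A match describes letters and was not tested as a binding site, and nothing about Ifi47 follows from its window.

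The tables held 98582479 unique molecular identifiers (UMIs, 1 per captured RNA molecule) in 16208 barcodes of the Lmo7+/+ library and 80648345 in 15163 of the library labelled Lmo7-/-. After a filter on genes, UMIs and mitochondrial share, 13542 and 11860 cells were left, with a median of 4536 and 4304 UMIs. Cells were put into 12 classes by marker panels, and 20.7% and 18% of cells met no gate. The classes run from 5993 and 4390 tumor-like and 3307 and 3953 macrophage-like cells down to 50 and 29 NK-like cells, Lmo7+/+ library first, as throughout. The gates use these same panels, so a panel's level in its class follows in part from the gate, and the T-like classes were all read with the T cell panel. In 11 of the 12 classes every marker of the panel was at 5 CPM or more, CPM being a gene's counts per 1000000 counts of its class. Tumor-like cells had 7 of 15, and the epithelial markers Krt8, Krt18 and Epcam were at 3.0 and 0.217 CPM, 2.34 and 0.0482 CPM and 4.18 and 2.12 CPM, so that this class rests on Tm4sf1, Hmga2, Cav1 and others rather than on keratins. Tm4sf1 and Cav1 are not particular to it. They stood at 638 and 565 CPM and 336 and 317 CPM there, but at 1707 and 1134 CPM and 597 and 491 CPM in endothelial-like cells. Hmga2 stood at 238 and 309 CPM in tumor-like and 21.2 CPM per library in endothelial-like cells. Lmo7 itself did not check the label: host classes together had 38 and 33 UMIs of it, a log2 ratio of -0.21 (-0.93 to 0.50), and the deleted part of the gene is not given in the sources used here. The second library is therefore called by its label. In the 12 classes, between 0% and 35.4% of a library's cells lay within 20% of the gate's main limit, so that a class is a range and not a sharp type. Tumor-like cells had a median of 6775 and 6608 UMIs and macrophage-like cells 5197 and 4418. There were 279 barcodes in both libraries, and leaving them out moved no value of the whole family by more than its interval.

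All 7 members were found in tumor-like cells and in host cells, and their summed level was highest in endothelial-like cells, which line blood vessels. Counts of a class were summed per library and divided by the class's total. The 7 genes together reached 1558 CPM (1441 to 1681) in the Lmo7+/+ library and 2543 CPM (2374 to 2721) in the library labelled Lmo7-/- in endothelial-like cells. Fibroblast-like cells (823 and 1164 CPM) and regulatory T-like cells (743 and 1104 CPM) followed, and their intervals overlapped in both libraries. In the Lmo7+/+ library the summed level was 446 CPM in tumor-like, 431 in type 1 dendritic-like and 424 in macrophage-like cells, values whose intervals overlap from one to the next. In the library labelled Lmo7-/- tumor-like cells, at 1024 CPM, stood above monocyte-like (802) and macrophage-like cells (635), with intervals that did not overlap. CD8 T-like, NK-like and mature dendritic-like cells were lowest in both libraries, at 274 and 315 CPM, 259.8 and 279.9 CPM and 131 and 236 CPM.

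**Figure D1:**
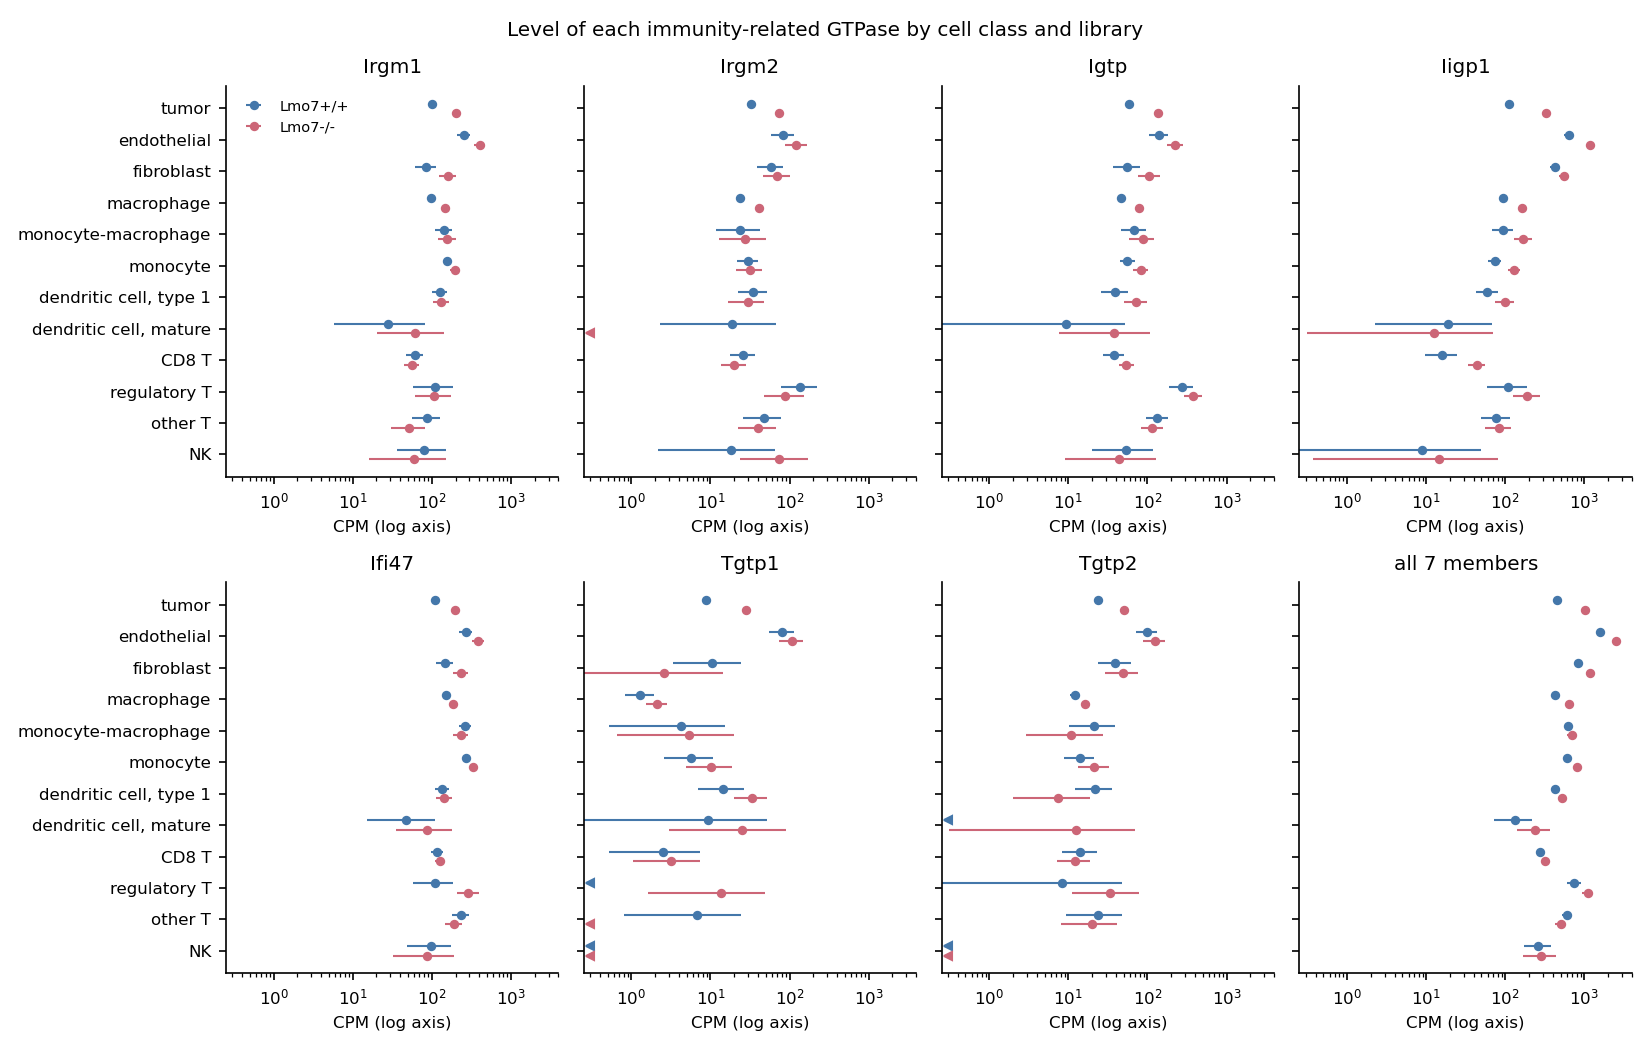
Level of each member and of the 7 together, in CPM on a log axis, for 12 marker-gated classes (rows) in the Lmo7+/+ library (blue) and the library labelled Lmo7-/- (red). Points are summed counts over the class total, bars are 95% Poisson intervals cut at the left edge, and left-pointing triangles mark a count of 0. Endothelial-like cells carry the highest summed level in both libraries, 1558 and 2543 CPM, and Tgtp1 and Tgtp2 are at 0 in NK-like cells.

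Among the GMS regulators, Irgm1, which also guards autophagy and blood stem cells, was highest in endothelial-like cells at 255 CPM (209 to 308) in the Lmo7+/+ library and 403 CPM (338 to 478) in the library labelled Lmo7-/-. In most other classes its level was lower, from 61.2 CPM in CD8 T-like to 156 CPM in monocyte-like cells of the Lmo7+/+ library, apart from 28.1 CPM, from 3 UMIs, in mature dendritic-like cells. Igtp was arranged differently. Its highest level was in regulatory T-like cells, 270.1 CPM (185 to 381) in the Lmo7+/+ library and 379 CPM (286 to 492) in the library labelled Lmo7-/-, against 37.7 and 54.2 CPM in CD8 T-like and 134 and 115 CPM in the other T-like cells. Irgm2 was also high there in the Lmo7+/+ library, 135 CPM (77.2 to 219), from 16 UMIs, and its interval overlapped that of endothelial-like cells, 82.6 CPM (57.5 to 115).

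Of the GKS effectors, Iigp1, which coats parasite vacuoles early, was highest in the stroma but not confined to it. It reached 630.2 CPM (557 to 711) in the Lmo7+/+ library and 1179 CPM (1065 to 1302) in the library labelled Lmo7-/- in endothelial-like cells and 429 and 545 CPM in fibroblast-like cells, against 15.9 and 44 CPM in CD8 T-like cells and 1 UMI per library in NK-like cells. Tumor-like cells came next after the stroma, at 113 and 330 CPM, and regulatory T-like cells had 109.7 and 190 CPM. Ifi47 was spread more evenly over leukocytes. It stood at 272 and 332 CPM in monocyte-like cells, 151 and 188 CPM in macrophage-like cells and 117 and 126 CPM in CD8 T-like cells beside 271 and 385 CPM in endothelial-like and 146 and 234 CPM in fibroblast-like cells. Tgtp1 and Tgtp2 were low in macrophage-like cells, where Tgtp1 had 24 and 41 UMIs in all, 1.28 and 2.11 CPM, against 80.3 and 106 CPM in endothelial-like and 8.76 and 28.5 CPM in tumor-like cells. In the summed counts of Tgtp1 and Tgtp2, which do not depend on the split of their reads, macrophage-like cells stood at 13.4 and 18.4 CPM and endothelial-like cells at 179 and 230.4 CPM. In the 111606 and 67881 UMIs of NK-like cells neither gene was found.

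The make-up of the family therefore differed between classes within each library. Iigp1 held 52.1% (47.1 to 57.1) of the family's UMIs in fibroblast-like cells and 40.5% (36.7 to 44.3) in endothelial-like cells of the Lmo7+/+ library, against 22.1% (21.2 to 23) in macrophage-like and 5.81% (3.53 to 8.93) in CD8 T-like cells. Ifi47 held 44.8% (41.6 to 48) in monocyte-like and 42.5% (37.1 to 48.1) in CD8 T-like cells but 17.4% (14.6 to 20.5) in endothelial-like cells. The 3 regulators together held 69.3% (58.6 to 78.7) in regulatory T-like cells, from 88 UMIs, against 24.1% (19.9 to 28.6) in fibroblast-like and 43% (42.4 to 43.6) in tumor-like cells. In the library labelled Lmo7-/- these shares were 52.1% (44.2 to 60.02), 28.7% (24.6 to 33.1) and 40.6% (40.1 to 41.1). Regulatory T-like cells had the highest regulator share of the 10 classes compared in both libraries. In the library labelled Lmo7-/- their interval overlapped those of other classes, such as type 1 dendritic-like cells at 45.2% (39.3 to 51.2). NK-like cells were not among the 10, and had 58.6% (38.9 to 76.5) in the Lmo7+/+ library, from 29 UMIs. These are shares of UMIs, which do not correct for how well each transcript is captured.

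**Figure D2:**
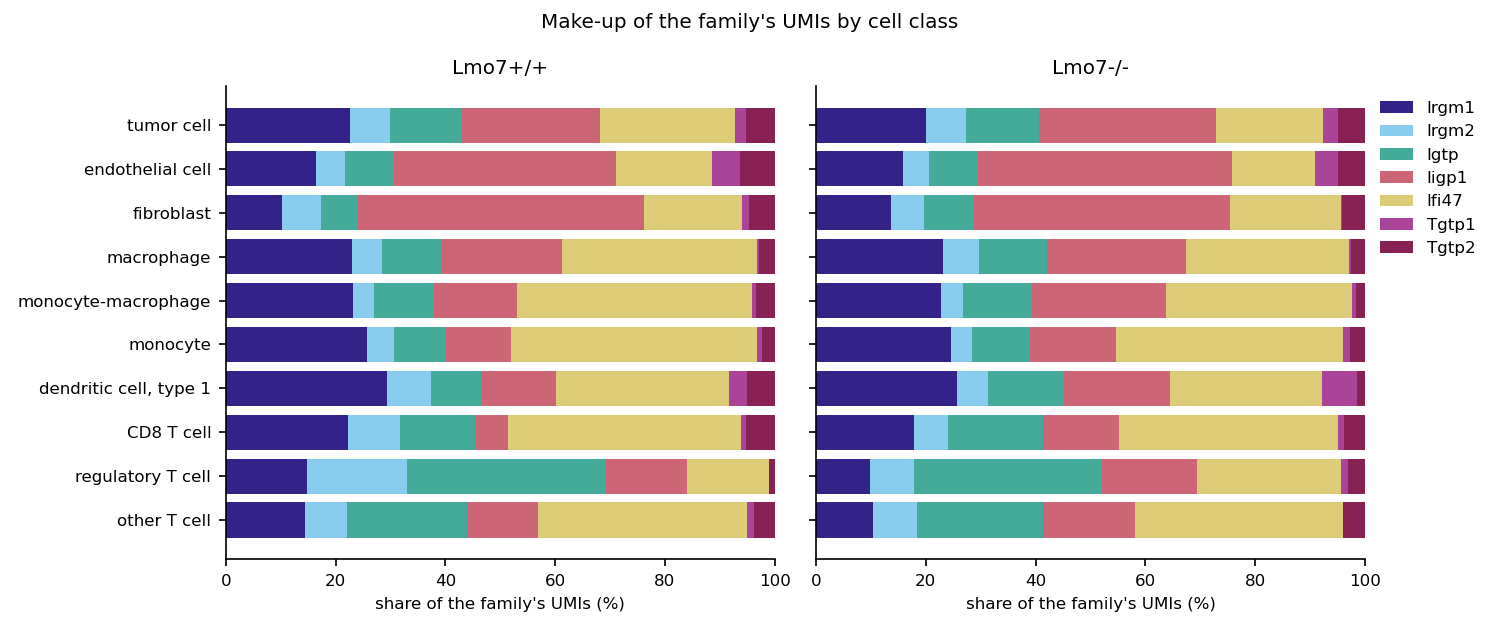
Share of the family's UMIs (percent, horizontal axis) held by each of the 7 members in 10 classes, in the Lmo7+/+ library (left) and the library labelled Lmo7-/- (right). Iigp1 fills the widest part of the bar in fibroblast-like and endothelial-like cells, Ifi47 in monocyte-like cells, and Igtp in regulatory T-like cells.

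In tumor-like cells the family's summed log2 ratio between the libraries was the highest of the 12 classes as gated. All 7 members were higher in the library labelled Lmo7-/-, each by a log2 ratio of 0.87 to 1.70, and together they stood at 446 CPM (441 to 452) in the Lmo7+/+ library and 1024 CPM (1014 to 1033) in the library labelled Lmo7-/-, a log2 ratio of 1.20 (1.17 to 1.22). The implanted line was the same in both libraries, but the class may also hold host cells, whose part was not tested apart from the clusters below. A log2 ratio of 0.5 or more upward was reached by 7 of 7 members and by 4.54% of the 14110 genes with at least 20 counts, whose median was -0.04.

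Among the regulators in tumor-like cells, Irgm1 stood at 101 CPM (98.4 to 104) in the Lmo7+/+ library and 205 CPM (200.4 to 209) in the library labelled Lmo7-/-, a log2 ratio of 1.02 (0.97 to 1.07). Irgm2 stood at 32.5 and 74.5 CPM, a log2 ratio of 1.20 (1.11 to 1.28). Igtp stood at 58.5 and 137 CPM, a log2 ratio of 1.22 (1.16 to 1.29). The regulators thus differed by close to or somewhat above a log2 ratio of 1. Among the effectors, Iigp1 stood at 113 CPM (109.9 to 115) in the Lmo7+/+ library and 329.9 CPM (324 to 335) in the library labelled Lmo7-/-, a log2 ratio of 1.55 (1.51 to 1.59). Ifi47, at 109 and 199 CPM, had the smallest log2 ratio of the family, 0.87 (0.82 to 0.91), and its interval overlapped that of no other member. Tgtp1 had 8.76 and 28.5 CPM and the highest ratio, 1.70 (1.55 to 1.85), and Tgtp2 23.7 and 50.1 CPM and 1.08 (0.98 to 1.18). With their counts added the pair had 1.28 (1.19 to 1.36). As a result Iigp1 made up 25.2% (24.7 to 25.7) of the family's UMIs in the Lmo7+/+ library and 32.2% (31.8 to 32.7) in the other, and Ifi47 24.5% (24 to 25.1) and 19.5% (19.1 to 19.9).

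The gap was present in every cluster whose gated cells were mostly tumor-like. Louvain clustering, with the members and the interferon lists left out of the variable genes, gave 7 such clusters. The summed members were higher in the library labelled Lmo7-/- in 7 of 7, with log2 ratios from 0.86 to 1.49 and every interval above 0. Levels ranged over these clusters from 289 to 728 CPM in the Lmo7+/+ library and from 543 to 1788 CPM in the other. The highest in both was a cluster led by Enpp2, Igfbp5 and Ptn, at 728 and 1788 CPM. Its first 10 genes hold the pericyte gene Pdgfrb and none of the tumor panel, though other tumor-like clusters also have no panel gene among their first 10. Cluster values here count all cells of a cluster, including those outside the tumor-like gate. Another cluster has the stromal gene Cd248 among its first 10, beside Krt14 of the tumor panel. Whether these 2 clusters hold host cells was not tested. In the 4909 and 3732 tumor-like cells outside these 2 clusters, the summed level was 401 and 914 CPM and the log2 ratio 1.19 (1.16 to 1.21). The lowest in the Lmo7+/+ library was a cluster led by Zdhhc2, Il1rl1 and Hist1h4i, at 289 and 809 CPM, and the lowest in the other a cluster led by the hypoxia genes Ero1l, Ankrd37 and Car9, at 299 and 543 CPM. The gap was there in cycling and in non-cycling cells. Tumor-like cells with at least 2 cycling markers (3738 and 2752 cells) had 425 and 1025 CPM and a log2 ratio of 1.27 (1.24 to 1.30), and those with none (1177 and 892 cells) had 468 and 1058 CPM and 1.18 (1.11 to 1.24).

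Per cell, more tumor-like cells carried the family's RNA, and those that carried it had more. To compare cells at equal depth, each was thinned to 1500 UMIs, leaving out 572 and 433 shallower cells. At least 1 UMI of any member was then found in 35.7% (34.4 to 37) of Lmo7+/+ library cells and 59.5% (58 to 61.1) of cells of the other library, and in 68.9% and 84% before thinning. For Iigp1 the thinned shares were 12.8% (11.9 to 13.7) and 30.5% (29.1 to 32), with 32.9% and 57% before thinning. Among the 3485 and 2555 deeper cells, thinned to 5000 UMIs, the median was 1.0 and 3.0 UMIs of the family per cell. Cells with none made up 36% and 17.8%, and cells with 10 or more 4.71% and 16.8%. The highest single cells had 35 and 48. At least 3 different members were found in 18.7% and 42.9% of these cells.

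**Figure D3:**
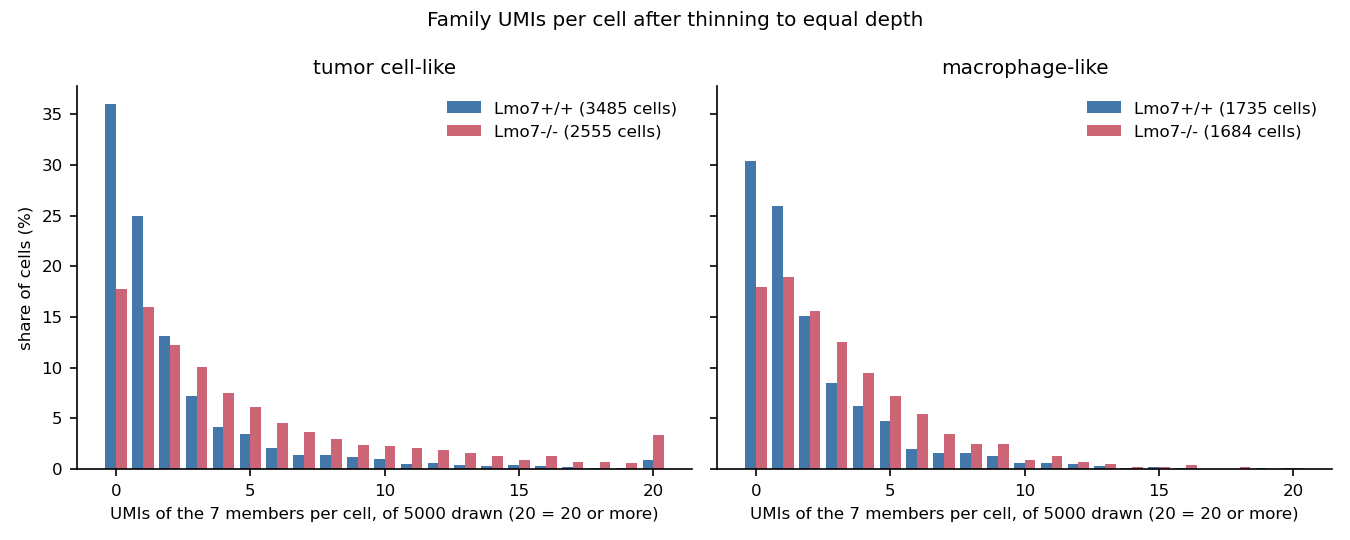
Share of cells (percent, vertical axis) by the number of UMIs of the 7 members in a cell thinned to 5000 UMIs (horizontal axis, 20 standing for 20 or more), for tumor-like cells (left) and macrophage-like cells (right) of the Lmo7+/+ library (blue) and the library labelled Lmo7-/- (red). The share of tumor-like cells at 0 is 36% in blue and 17.8% in red, and the red bars are the taller ones from 3 UMIs upward.

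RNA of other cells was present at a low level in the tumor-like class. The macrophage gene C1qa stood at 15.1 and 14.2 CPM there and at 2084 and 2290.2 CPM in macrophage-like cells. In the 2501 and 2165 tumor-like cells without a UMI of the macrophage panel, the summed members had 450.2 and 1002 CPM and a log2 ratio of 1.15 (1.12 to 1.19), close to that of the whole class.

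In macrophage-like cells, too, the members were higher in the library labelled Lmo7-/-, by less than in tumor-like cells. The summed level was 424 CPM (415 to 434) in the Lmo7+/+ library and 635 CPM (624 to 646) in the library labelled Lmo7-/-, a log2 ratio of 0.58 (0.54 to 0.62), and all 7 ratios were above 0, 6 with an interval above 0. A log2 ratio of at least 0.5 was reached by 5 of 7 members, against 4.69% of 12156 genes, whose median was -0.10. TMM scaling would move that median by 0.10 in macrophage-like and by 0.10 in fibroblast-like cells, and every ratio of these classes with it.

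The regulators in macrophage-like cells stood at 97.2 and 147 CPM for Irgm1, log2 ratio 0.59 (0.51 to 0.68). Irgm2 stood at 23.4 and 41.6 CPM, log2 ratio 0.83 (0.66 to 1.001). Igtp stood at 45.8 and 78.7 CPM, log2 ratio 0.78 (0.66 to 0.90). Of the effectors, Iigp1 had 93.6 and 161 CPM and 0.78 (0.70 to 0.87), whereas Ifi47 had 151 and 188 CPM and the smallest ratio, 0.32 (0.25 to 0.39). Ifi47 thus had the smallest ratio in macrophage-like as in tumor-like cells. In macrophage-like cells, however, its interval overlapped those of Tgtp1 and Tgtp2. Tgtp2 had 12.1 and 16.3 CPM and 0.43 (0.17 to 0.68), and Tgtp1, with 24 and 41 UMIs, 0.72 (-0.05 to 1.51). With their counts added the pair had 0.46 (0.22 to 0.69), short of the 0.5 that Tgtp1 alone passed.

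The summed members were higher in 5 of 5 clusters whose gated cells were mostly macrophage-like, with log2 ratios from 0.25 to 0.98. These values, too, count all cells of a cluster. The libraries spread over these clusters differently. The largest in the Lmo7+/+ library, led by Cx3cr1, Fcrls and Ptgs1, held 1552 and 1171 cells, and the largest in the other, led by H2-M2, Ccl8 and Il18bp, 708 and 1401. Their log2 ratios were 0.72 and 0.47. The highest ratio was in a cluster led by Mmp12, Atp6v0d2 and Arg1, the first a matrix protease and the last arginase, which had 247 and 488 CPM and the lowest levels of the 5 in both libraries. The lowest ratio was in a cluster led by Retnla, Folr2 and Lyve1, genes known from resident macrophages, with 533 and 636 CPM. Macrophage-like cells with at least 2 cycling markers (1312 and 1196 cells) had 398 and 654 CPM and a log2 ratio of 0.72 (0.66 to 0.78). Those with none (1234 and 1838 cells) had 442 and 619.7 CPM and 0.49 (0.42 to 0.56), an interval that did not overlap the first. The single members whose intervals also lay apart or nearly so were Ifi47, with 0.50 (0.39 to 0.61) in cycling and 0.13 (0.01 to 0.26) in non-cycling cells, and Irgm1, with 0.76 (0.63 to 0.88) and 0.48 (0.33 to 0.63). After thinning to 1500 UMIs, any member was found in 38.7% (37 to 40.4) and 52.2% (50.6 to 53.9) of macrophage-like cells, with 67.7% and 75.8% before thinning.

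Monocyte-like cells had 608 CPM (569.6 to 647) in the Lmo7+/+ library and 802 CPM (747 to 860.2) in the library labelled Lmo7-/-, a log2 ratio of 0.40 (0.26 to 0.54), with 3 of the 6 members with at least 20 counts past 0.5, against 7.57% of genes. Iigp1 led with 73.7 and 128 CPM and 0.80 (0.43 to 1.18). Cells with both monocyte and macrophage markers (82 and 80 cells) had 619 and 688 CPM and 0.15 (-0.10 to 0.40), an interval that holds 0, with 1 of 5 members past 0.5 against 10.8% of genes. In type 1 dendritic-like cells (152 and 117 cells) the summed level was 431 and 517 CPM, a log2 ratio of 0.26 (0.02 to 0.50), which turned to -0.13 under stricter gates. Among the 6 members counted there, 3 were past 0.5, against 10.1% of genes, namely Igtp (0.88, interval 0.14 to 1.65), Iigp1 (0.75, interval 0.14 to 1.37) and Tgtp1 (1.20, interval 0.01 to 2.48), while Irgm1 and Ifi47 had 0.06 (-0.41 to 0.53) and 0.08 (-0.37 to 0.53). Tgtp2, short of 20 counts, had 15 and 4 UMIs. With their counts added Tgtp1 and Tgtp2 had 0.17 (-0.73 to 1.05), so the Tgtp1 value depends on the split of reads. Mature dendritic-like cells held 14 and 19 UMIs of the family, too few to compare.

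**Figure D4:**
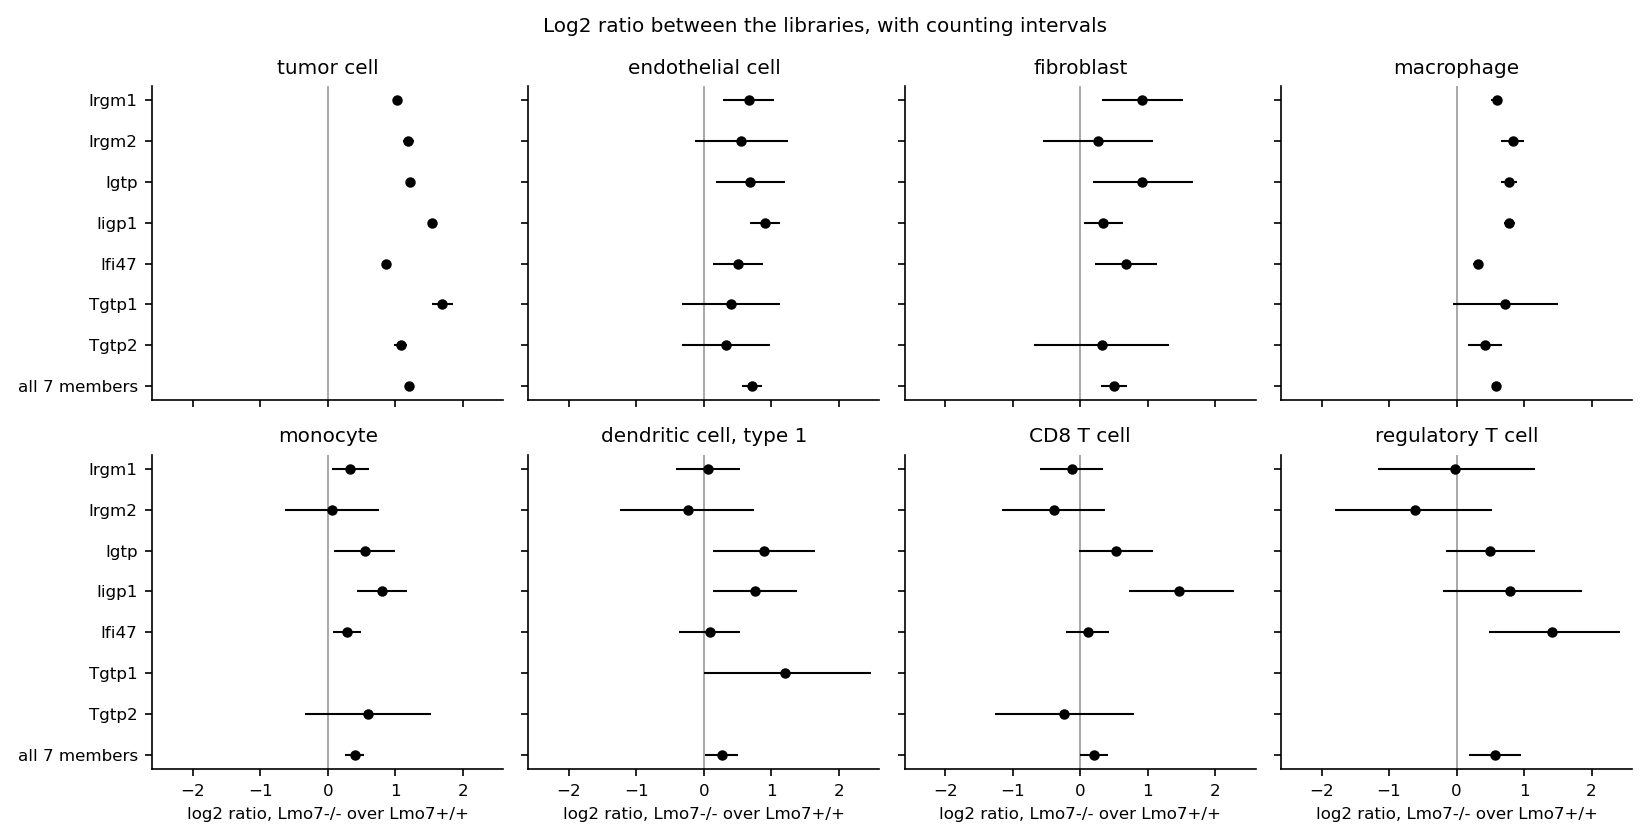
Log2 ratio of CPM in the library labelled Lmo7-/- over the Lmo7+/+ library (horizontal axis) for each member and the 7 together, in 8 classes, with 95% counting intervals as bars and a grey line at 0. A member with fewer than 20 counts in both libraries together, or none in one, is left out. All 7 points lie above 0.8 in tumor-like cells, and points lie on both sides of 0 in CD8 T-like and regulatory T-like cells.

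In the stroma, endothelial-like cells (83 and 63 cells) joined the highest levels to a higher level in the library labelled Lmo7-/-. Their summed log2 ratio was 0.71 (0.56 to 0.86), and 5 of 7 members were past 0.5, against 14.7% of 5623 genes. Iigp1 had 0.90 (0.68 to 1.13), Igtp 0.69 (0.17 to 1.21), Irgm1 0.66 (0.28 to 1.04) and Ifi47 0.50 (0.13 to 0.88), and the intervals of Irgm2, Tgtp1 and Tgtp2 held 0. At least 1 UMI of Iigp1 was found in 49.3% (37.4 to 61.3) and 71.7% (57.7 to 83.2) of endothelial-like cells thinned to 1500 UMIs, and of any member in 72.6% (60.9 to 82.4) and 92.5% (81.8 to 97.9), with 88% and 98.4% before thinning. Thinning lowered the summed log2 ratio to 0.45, and Ifi47 turned to -0.10 when only the 29 and 22 cells with 5000 UMIs were used. Fibroblast-like cells (87 and 69 cells) had a summed log2 ratio of 0.50 (0.30 to 0.70), with 3 of 6 members past 0.5 against 12.4% of genes. Igtp and Irgm1 led there, with 0.92 (0.18 to 1.68) and 0.91 (0.32 to 1.52), and Iigp1 had 0.34 (0.06 to 0.63). In the 48 and 34 fibroblast-like cells without a macrophage UMI the summed ratio was 1.16 (0.85 to 1.47), so its size depends on which cells are counted. Tm4sf1, a marker of the tumor panel, stood at 151 and 162 CPM in fibroblast-like cells and 638 and 565 CPM in tumor-like cells, and the part of tumor cell RNA in the fibroblast values was not tested.

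In T-like cells the members' ratios pointed both ways. CD8 T-like cells (322 and 480 cells) had 274 CPM (245 to 306) in the Lmo7+/+ library and 315 CPM (288 to 344) in the library labelled Lmo7-/-, a log2 ratio of 0.20 (0.00 to 0.41). Without cells holding a UMI of Cav1, Hmga2 or Tm4sf1 it was -0.0078 (-0.23 to 0.22), and thinned to 1500 UMIs 0.47. Of 6 members counted, 2 were past 0.5, against 7.74% of genes, and the median ratio was -0.01. Irgm1, Irgm2 and Ifi47 had -0.13 (-0.59 to 0.34), -0.39 (-1.16 to 0.37) and 0.11 (-0.21 to 0.43). Igtp had 37.7 and 54.2 CPM and 0.52 (-0.02 to 1.08). Iigp1 alone had an interval above 0, with 15.9 and 44 CPM from 19 and 69 UMIs and 1.47 (0.72 to 2.28). Tm4sf1 stood at 34.4 and 37 CPM in these cells and C1qa at 67.9 and 60.6 CPM. In the 269 and 428 CD8 T-like cells with no UMI of Cav1, Hmga2 or Tm4sf1, Iigp1 stood at 19.1 and 22.1 CPM, a log2 ratio of 0.21 (-0.68 to 1.14), so that the difference was not detectable there. The share of thinned CD8 T-like cells with a UMI of Iigp1 was 3.99% (2.01 to 7.02) and 5.17% (3.18 to 7.87), with 4.97% and 8.96% before thinning and median depths of 2726 and 2495 UMIs. The lowest level to set beside it was that of NK-like cells, with 0 of 34 thinned cells of the Lmo7+/+ library, an interval up to 10.3%, at a median depth of 1702 UMIs. No class here is known to lack Iigp1, and the part of free RNA in the CD8 T-like share was not tested.

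Regulatory T-like cells (47 and 51 cells, 88 and 163 UMIs of the family) had a summed log2 ratio of 0.57 (0.19 to 0.96), which was 0.17 with the strict cell filter and 1.19 in cells thinned to 5000 UMIs. At median depths of 1861 and 1804 UMIs, few of these cells reached 5000, so the value of 1.19 rests on few cells. Of 5 members counted, 2 were past 0.5 upward and 1 downward, against 17.4% of genes upward and 17.4% downward. Ifi47 had 109.7 and 291 CPM and 1.41 (0.49 to 2.43), whereas Irgm2 had 135 and 88 CPM and -0.62 (-1.79 to 0.53). The other T-like cells (130 and 137 cells) had 607 and 499 CPM, a log2 ratio of -0.28 (-0.59 to 0.03), with 0 of 5 members past 0.5 upward against 13.2% of genes. Of the 12 classes it alone had a summed ratio below 0. In its cells without a UMI of Cav1, Hmga2 or Tm4sf1 the ratio was -0.39 (-0.72 to -0.06), thinned to 1500 UMIs it was -0.92, and as a mean over cells 0.09. In NK-like cells 29 and 19 UMIs gave 0.11 (-0.81 to 0.99).

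The rest of the pathway was read from gene lists chosen for this tissue, counting members with at least 20 counts. In tumor-like cells 7 of 8 other immunity-related GTPases were past a log2 ratio of 0.5 upward, against 4.54% of genes, with a median of 0.90 beside -0.04 over all genes. By counts the first 4 were 9930111J21Rik2 (0.60, interval 0.46 to 0.74), Gm4951 (0.90, interval 0.75 to 1.05), Gm4841 (1.61, interval 1.44 to 1.78) and Irgq (-0.11, interval -0.28 to 0.07), the last a distant relative of the family. Gm12185, whose sequence is shared with Tgtp1 and Tgtp2, had 1.48 (1.19 to 1.78). Of the guanylate-binding proteins, larger GTPases that act on the same vacuoles, 9 of 10 were past 0.5, with a median of 1.18. Gbp2 stood at 169.9 and 409 CPM, log2 ratio 1.27 (1.23 to 1.30), and Gbp7, Gbp3 and Gbp4 had 0.91 (0.86 to 0.97), 0.73 (0.65 to 0.81) and 1.63 (1.51 to 1.74). The 7 members, with a median of 1.20, thus lay in the range of the guanylate-binding proteins.

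Interferon gamma targets in tumor-like cells were past 0.5 in 9 of 12 cases, against 4.54% of genes, with a median of 1.02. They included Cxcl10, a chemokine for T cells, at 249.8 and 566 CPM, log2 ratio 1.18 (1.15 to 1.21), and the immunoproteasome subunits Psmb9 (0.66, interval 0.62 to 0.70) and Psmb8 (0.38, interval 0.35 to 0.40), the latter short of 0.5. Type I interferon targets were past it in 0 of 14, with a median of 0.18. At a share of 4.54% over all genes a short list often holds none. A count of 0 here and below therefore does not set a list apart from other genes. Isg15, an interferon-induced ubiquitin-like protein, stood at 88.7 and 92 CPM, log2 ratio 0.05 (-0.01 to 0.11), and Oasl2, Xaf1 and Rtp4 had 0.17 (0.11 to 0.23), 0.40 (0.35 to 0.45) and 0.43 (0.35 to 0.51). Of the signal chain, Irf1, an interferon-induced transcription factor, stood at 418 and 569 CPM, log2 ratio 0.44 (0.42 to 0.47), while Jak1 and Stat3 had 0.03 (-0.02 to 0.07) and 0.02 (-0.03 to 0.07). Some genes of this list were past 0.5, among them Irf8, at 14.1 and 25.5 CPM, log2 ratio 0.85 (0.72 to 0.99). Of the receptors, 0 of 5 were past 0.5, and their median was -0.03. Ifngr1 and Ifngr2, the chains of the interferon gamma receptor, had -0.12 (-0.21 to -0.03) and -0.31 (-0.41 to -0.21). Negative regulators were past 0.5 in 0 of 6 (median 0.01, with Socs1 at 0.14, interval 0.07 to 0.21), and autophagy conjugation genes, on which the loading of effectors depends, in 0 of 10 (median -0.08, with Gabarap at -0.15, interval -0.18 to -0.11). Genes of dissociation stress had 1 of 12 past 0.5 upward and 2 downward, against 4.54% of genes upward and 5.92% downward, with a median of -0.29, and their part in the members' levels was not tested.

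No interferon ligand reached 20 counts in tumor-like cells. Ifng, the gene of interferon gamma, was found in CD8 T-like cells at 98.1 and 120.5 CPM and in the other T-like cells at 221 and 227 CPM. In CD8 T-like cells its log2 ratio was 0.30 (-0.04 to 0.64), an interval that holds 0. The library labelled Lmo7-/- held 480 CD8 T-like cells, 4.05% of its kept cells, against 322 or 2.38%. Whether that bears on the members was not tested.

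In macrophage-like cells the medians of the lists named next were lower than in tumor-like cells. Single genes could go the other way, such as Irf1, with 0.86 (0.80 to 0.93) against 0.44 in tumor-like cells. Of the guanylate-binding proteins 6 of 9 were past 0.5 upward (median 0.61) and of interferon gamma targets 4 of 11 (median 0.31). Of other immunity-related GTPases 4 of 9 were past it upward and 1 downward (median 0.17), and of type I interferon targets 0 of 14 upward and 1 downward (median -0.15). Over all genes 4.69% were past it upward and 8.33% downward, with a median of -0.10. The type I targets lay close to these values and did not stand apart. Cxcl9, another chemokine for T cells, stood at 802 and 1611 CPM, log2 ratio 1.01 (0.98 to 1.03), and Gbp2 at 187 and 301 CPM, log2 ratio 0.69 (0.63 to 0.75). Irf7, a factor of the type I response, had -0.18 (-0.22 to -0.13), and Isg15 had 0.007 (-0.04 to 0.06). In CD8 T-like cells, where the members had a median of -0.01, the guanylate-binding proteins had 0 of 8 past 0.5 upward, against 7.74% of genes, and a median of 0.04. There 12 of 14 type I interferon targets were lower by 0.5 or more, against 13.5% of genes, with a median of -1.16. Among them Isg15 stood at 173 and 86.1 CPM, log2 ratio -1.005 (-1.33 to -0.68) and Rsad2, an antiviral enzyme, at 122 and 8.93 CPM, log2 ratio -3.77 (-4.67 to -2.97). In endothelial-like cells 4 of 7 guanylate-binding proteins, 6 of 10 interferon gamma targets and 4 of 14 type I interferon targets were past 0.5 upward, against 14.7% of genes. In monocyte-like cells they were 3 of 9, 6 of 11 and 1 of 14, against 7.57%, a share that the type I targets did not pass.

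**Figure D5:**
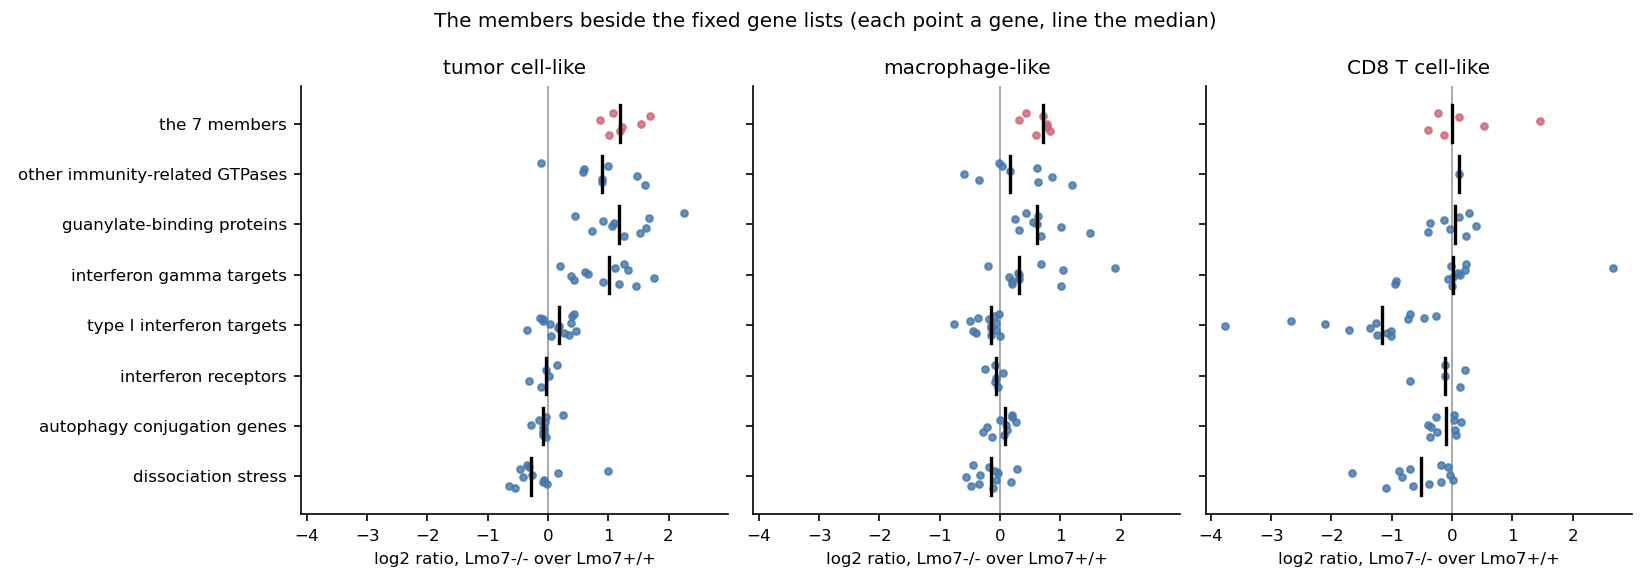
Log2 ratio of CPM in the library labelled Lmo7-/- over the Lmo7+/+ library (horizontal axis) for the 7 members (red) and the genes of 7 lists (blue) with at least 20 counts, in tumor-like, macrophage-like and CD8 T-like cells. Each point is a gene, spread vertically only to keep points apart, and a black line marks the median. The members and guanylate-binding proteins have medians of 1.20 and 1.18 in tumor-like cells, and type I interferon targets a median of -1.16 in CD8 T-like cells.

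Over the 20 summed values of 10 classes in 2 libraries (those with at least 100000 UMIs), the members' levels were only partly alike. On the scale of log2(CPM + 1) the 21 pairs had Pearson's r from 0.19 to 0.83, with a median of 0.55. The most alike were Irgm2 and Igtp (r = 0.83, Spearman's rho = 0.78), the neighbours whose annotations overlap, and the least alike Igtp and Tgtp1 (0.19). The genes most like the summed members, among 12178 genes with at least 200 counts, were Adarb1 (r = 0.84), Clec2d (0.84), Rbpms (0.83), Inpp5a (0.82) and Irf1 (0.82). These points share their library and differ in depth, so r is given as a description. Within a class, over cells thinned to 5000 UMIs, the 21 pairs had r from 0.12 to 0.52 in tumor-like cells of the Lmo7+/+ library and from 0.19 to 0.49 in those of the other. In macrophage-like cells the medians were 0.15 and 0.13, against 0.33 and 0.34 in tumor-like cells. With so few UMIs per gene and cell such values also depend on the level of each gene.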

How the data were processed

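Live cells sorted from MC38 tumors were sequenced on the 10x Genomics platform, with 1 library from Lmo7+/+ hosts and 1 labelled Lmo7-/-. The values are raw UMI counts per gene and barcode, deposited by the authors as 1 sparse matrix per library. The submitters' processing notes name Cell Ranger 2.1.1 and mm10, whereas the headers of the deposited matrices name software version 3.0.0 and the barcodes have 24 bases, so the version that made the counts is uncertain. Read length, the end of the transcript that was read and the handling of strand are not given in the sources used here, so reads of the overlapping genes Igtp and Irgm2, of Ifi47 and Olfr56, and of Tgtp1, Tgtp2 and Gm12185, may have been split or dropped.

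The filter asked of a cell 500 genes and 1000 UMIs or more, with mitochondrial UMIs up to 15%, and doublets stayed in the main values. Each cell was put into a class by its summed UMIs per 10000 of marker panels, with limits set after the data had been seen. The members, panels and gene lists were chosen with earlier results of these data known. All 7 members are named with their ratios in tumor-like and macrophage-like cells. In the other classes the ratios of only some members are given, also where more reached 20 counts. Of each list, at most the 4 genes with the most counts in the class were named, and the genes named outside that rule (Gm12185, Irf8, and Ifng beside the ligand list) were chosen after their values were seen. The 5 genes most like the summed members were those with the highest Pearson's r over class sums of log2(CPM + 1).

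Counts were summed per class and library and divided by the total as CPM, with exact Poisson intervals. Log2 ratios carry Clopper-Pearson intervals on the split of the counts, and shares of cells exact binomial intervals, all at 95% and for counting error only. A count of 0 was read as at most 3 counts. UMIs mark molecules, and the intervals do not cover variation between mice or tumors. With 1 library per genotype no test was run and no p-value is given. A gene was counted as higher at a log2 ratio of 0.5 or more given 20 counts or more over the pair of libraries. The scripts were tested on simulated data. Alternatives were a strict filter (1000 genes, 2000 UMIs, 10%), a lenient one (200, 500, 25%), removal of doublets marked by Scrublet, stricter gates, Louvain clusters (2000 genes, 30 components, 20 neighbours, resolution 1), TMM factors, totals without the 10 most abundant genes, the mean over cells, and thinning. Those chosen after seeing the data were thinning to 5000 UMIs, removal of barcodes found in both libraries, removal of cells with UMIs of another class, the split of tumor-like cells by cycling and cluster, and removal of the tumor-like clusters with Pdgfrb or Cd248 among their first 10 genes. Promoter windows came from RefSeq and positions from GENCODE vM21. Protein sequences were not analysed here. The values of 1 listed gene are not reported here. Tools were Python 3.11.15, numpy 2.4.6, pandas 2.3.3, scipy 1.17.1, scanpy 1.11.5, igraph 0.11.9, scikit-learn 1.9.0, matplotlib 3.10.9, R 4.3.3 and edgeR 4.0.16, the last for TMM factors only.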

Additional observations from a re-analysis of the deposited data

Results flagged for a closer look

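Cells that met no gate belong to none of the classes compared, and they carried the members too. Together the 7 genes stood at 481 CPM in the 2807 ungated cells of the Lmo7+/+ library and at 957 CPM in the 2136 of the library labelled Lmo7-/-, a log2 ratio of 0.99 (0.94 to 1.04). These values were singled out because they are a signal outside the classes that the comparisons use. With 1 library per genotype the difference was not tested.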

How the results depend on the processing

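The summed log2 ratio stayed above 0 under all 13 alternatives in tumor-like cells (1.13 to 1.24), all 12 in endothelial-like (0.45 to 0.83), fibroblast-like (0.27 to 1.16), macrophage-like (0.54 to 0.68) and regulatory T-like cells (0.17 to 1.19), and under the 11 that could be run in monocyte-like cells (0.23 to 0.56), for which no Louvain cluster gave a value. Values that left their main interval were, in tumor-like cells, 1.17 with the strict filter, 1.15 without cells holding UMIs of another class, 1.14 thinned to 5000 UMIs, 1.24 with TMM and 1.13 as a mean over cells. In endothelial-like cells they were 0.50 by Louvain clusters, 0.45 thinned to 1500 UMIs, 0.45 thinned to 5000 and 0.50 as a mean over cells. In fibroblast-like cells they were 0.27 by Louvain clusters and 1.16 without cells holding UMIs of another class, and in macrophage-like cells 0.64 thinned to 1500 and 0.68 with TMM. In monocyte-like cells they were 0.23 with the strict filter, 0.23 thinned to 5000 and 0.56 as a mean over cells. In CD8 T-like cells they were -0.0078 without cells holding UMIs of another class and 0.47 thinned to 1500, and in regulatory T-like cells 0.17 with the strict filter and 1.19 thinned to 5000, the last from few cells. Of 72 log2 ratios, 25 turned sign under at least 1 alternative, in 44 of 813 values. In 3 of these values the main interval lay off 0, and these were type 1 dendritic-like cells under stricter gates, at -0.13, and, thinned to 5000 UMIs, Iigp1 of monocyte-macrophage-like cells at -0.62 and Ifi47 of endothelial-like cells at -0.10. The rest had main intervals that held 0, such as Tgtp1 and Tgtp2 of endothelial-like cells, at -0.79 and -0.37 when thinned to 5000. The cause was not tested. In tumor-like cells 641 genes passed a log2 ratio of 0.5, against 257 with at least 100 counts and 199 at a log2 ratio of 1. In macrophage-like cells they were 570.0, 272 and 154. No paired analysis was possible because each genotype has 1 library and nothing pairs them. The search of proteins for the nucleotide-binding loop and their identity was not run, since no protein sequences were at hand. Counting error limits the smaller classes, above all NK-like and mature dendritic-like cells.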
